A study of Mus musculus with 24 samples.

Results

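The N-methyl-D-aspartate (NMDA) receptor is a glutamate-gated channel of excitatory synapses that opens only when the postsynaptic membrane is already depolarized, and the calcium that enters through it starts the signalling behind many forms of synaptic plasticity. Each receptor contains the obligatory subunit GluN1, which binds the co-agonist glycine or D-serine, together with GluN2 subunits, which bind glutamate and set the kinetics of the channel, or GluN3 subunits, which bind glycine. In the hippocampus GluN2A and GluN2B are the main GluN2 subunits of principal neurons, and the share of GluN2A rises after birth. The genes of these subunits are Grin1 (GluN1), Grin2a, Grin2b, Grin2c and Grin2d (GluN2A to GluN2D), and Grin3a and Grin3b (GluN3A and GluN3B). They were taken as the 7 genes, of the 55471 in the deposited count table, whose Ensembl identifiers map to these symbols.

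Hippocampal RNA was sequenced from 12 C57BL/6J female mice aged 3 to 6 months, with 3 mice in each of 4 groups. CBP-ifKOs carried floxed Crebbp alleles, the gene of the acetyltransferase CBP, and the Camk2a-creERT2 transgene, and the controls were littermates without the transgene. All mice, controls included, received 5 intragastric administrations of tamoxifen (20 mg/mL). Either genotype was kept in standard cages (SC) or in environmental enrichment (EE) for about a month, so the comparisons ask how loss of CBP and housing each altered the subunit transcripts. The Camk2a promoter drives recombination in forebrain excitatory neurons, so inhibitory neurons and glia of a CBP-ifKO keep their CBP, and recombined cells still express a truncated CBP.

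Library totals lay between 26874015 and 27971488 counts in the 6 control mice and between 28582210 and 37448388 in the 6 CBP-ifKOs. Every one of the 148570 counts above 0 in the CBP-ifKO libraries was even, whereas 86334 of the 158233 in the control libraries were odd. Counts that are even throughout may be a multiple of the reads behind them, so library totals and raw counts are not comparable between the genotypes. This difference in counting follows genotype, so beyond a constant factor its effect cannot be told apart from that of CBP loss. Genes with counts above 0 numbered 23843 to 25225 in the CBP-ifKO libraries and 25981 to 26608 in the controls. A constant factor on a library cancels in levels scaled to the library total and in ratios within a mouse, but not in the counting error. Levels are given as CPM, counts scaled to the library total after TMM normalization over all 12 mice, and differences as log2 fold changes, with their standard errors, from edgeR's quasi-likelihood test, called at a Benjamini-Hochberg adjusted p below 0.05 over all genes tested. A floor of 3 counts, which covers counting error only, stood between 0.107 and 0.112 CPM in the control libraries by totals before TMM scaling. In the CBP-ifKO libraries 3 counts are 0.0801 to 0.105 CPM, and the floor there lies higher if counts are a multiple of reads.

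The target of the deletion came first as a check of the labels. Crebbp was measured at 73.9, 81.9 and 70.7 CPM in the control SC mice and at 50.5, 51.5 and 50.0 CPM in the CBP-ifKO SC mice. The EE-housed controls had 72.3, 77.1 and 69.6 CPM and the EE-housed CBP-ifKOs 44.5, 48.3 and 46.7 CPM. No CBP-ifKO reached the lowest control, and the change was -0.58 ± 0.06 (log2, SE) in SC (adjusted p = 0.000542) and -0.64 ± 0.06 in EE (adjusted p = 0.000407). Esr1, whose ligand-binding part is contained in creERT2, was higher in every CBP-ifKO, at 67.0 to 81.6 CPM against 3.47 to 5.81 CPM in controls. Ep300, the gene of the related acetyltransferase p300, differed by 0.18 ± 0.11 in SC (adjusted p = 0.394) and 0.07 ± 0.11 in EE (adjusted p = 0.775). It passed in SC when control replicate 2, its highest control, was left out (0.36, adjusted p = 0.00593, in a range up to 0.777 over the alternatives).

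The tissue label was checked on marker lists. All 5 genes on each of the lists for excitatory neurons, dentate granule cells, CA1 cells and CA3 and CA2 cells averaged at least 1 CPM, and their summed levels in control SC mice averaged 1661, 410, 762 and 341 CPM. Markers of neighbouring regions summed to 69.3 CPM for the 4 thalamus genes, 46.4 CPM for the 5 striatum genes and 15.6 CPM for the 4 cerebellar granule cell genes, where Gabra6 had 3 or fewer counts in at least 1 mouse. Control EE replicate 1 stood apart in the choroid plexus list, at 1220 CPM (led by Ttr) against 34.0 to 60.9 CPM in every other mouse.

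By counts not divided by length, Grin2b, Grin2a and Grin1 were abundant and Grin3b was close to the limit of detection. Over the 12 mice Grin2b averaged 639 CPM, rank 163 of the 18251 genes that passed the expression filter, Grin2a 395 CPM (rank 338) and Grin1 283 CPM (rank 583). Grin3a averaged 58.8 CPM, Grin2c 51.9 CPM and Grin2d 11.4 CPM. Grin3b had between 1 and 14 counts per mouse and was the only subunit that did not pass the filter, so 6 of the 7 were tested.

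**Figure D1:**
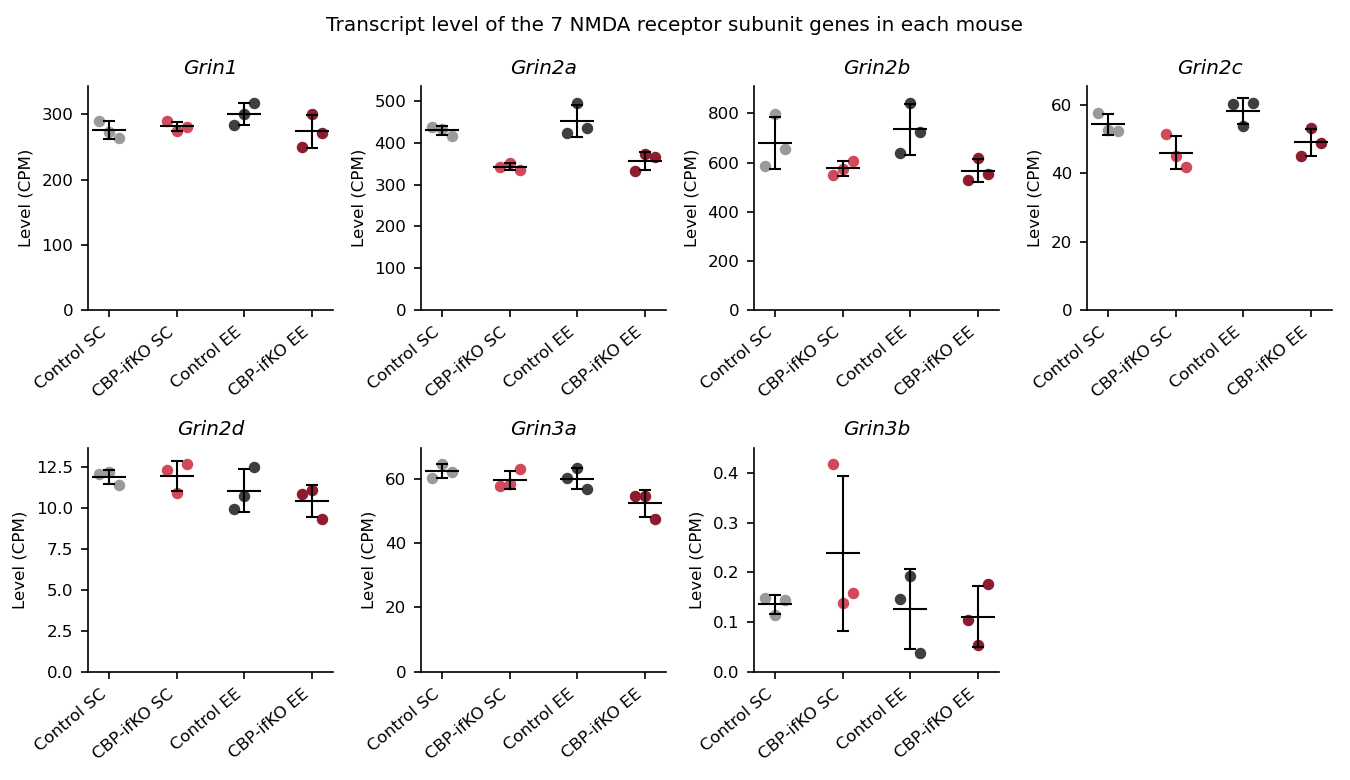
Level of each subunit gene in CPM (vertical axis, from 0) in each of the 12 mice, by group (horizontal axis). Points are mice, and the bars show the mean and SD of 3 mice. Grin2a is lower in every CBP-ifKO (333 to 372 CPM) than in any control (416 to 496 CPM).

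Levels of different genes can be compared only per length, here as CPM per kilobase of counted exon (RPKM). In control SC mice Grin1 stood at 28.4 ± 1.40 RPKM (SD, n = 3), Grin2b at 27.3 ± 4.29 and Grin2a at 23.9 ± 0.640. The ranges of Grin1 and Grin2b overlapped, as did those of Grin2b and Grin2a, so the order of the 3 leading genes was not resolved in these controls. Grin2c followed at 10.8 ± 0.592 RPKM, Grin3a at 5.09 ± 0.178, Grin2d at 1.79 ± 0.0678 and Grin3b at 0.0411 ± 0.00588, each separated from the next in all 3 mice. The same order of means was found in the other groups. In the CBP-ifKOs the leading genes no longer overlapped, with Grin1 at 29.0 ± 0.736, Grin2b at 23.2 ± 1.16 and Grin2a at 19.1 ± 0.470 RPKM in SC.

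The position of Grin1 depends on the length by which it is divided. The counted exons of Grin1 span 9700 bases, but its longest coding transcript in the GENCODE annotation has 4276, and 14 transcripts of the gene are annotated. Grin3a was similar, with 12275 and 7491 bases, whereas the lengths of Grin2b were close (24842 and 24060). Divided by the longest coding transcript, an alternative chosen after seeing the data, Grin1 led with 64.4 ± 3.18 RPKM in control SC mice, and Grin2a (29.3 ± 0.785) and Grin2b (28.2 ± 4.43) overlapped in every group. Grin1 then made up 44.9% of the summed level of the 7 genes in control SC mice, against 29.2% with the counted exons. Neither length affects a difference between groups for a gene or for a ratio of a pair of genes.

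Within the summed level of the family, the CBP-ifKOs had a larger share of Grin1 in either housing and by either length. With counted exons the share of Grin1 was 29.2% ± 1.75 (SD, n = 3) in control SC and 33.3% ± 0.608 in CBP-ifKO SC, and 29.9% ± 1.64 and 32.6% ± 0.649 in the EE-housed groups. Grin2a took 24.6% ± 0.852 in control SC and 21.9% ± 0.674 in CBP-ifKO SC, and 24.2% ± 1.01 and 23.0% ± 0.802 in the EE-housed groups. The family as a whole summed to 97.4 ± 4.18 RPKM in control SC and 87.2 ± 0.661 in CBP-ifKO SC, and to 104 ± 6.57 and 86.6 ± 6.33 RPKM in EE. Shares and sums were not tested.

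Loss of CBP was accompanied by lower Grin2a, Grin2b and Grin2c transcripts and by no detected change of Grin1, Grin2d or Grin3a. In SC 1 of the 6 tested subunits was called, Grin2a, where 5.52% of all 17532 genes were called. In EE it was again 1 of 6, Grin2a, beside 4.57% of 17625 genes. When the genotype change was averaged over housing in all 12 mice, 3 of 6 were called, all lower, beside 16.9% of 18251 genes. The median log2 fold change of the 6 was -0.19 in that comparison and 0.003 over all genes tested. The averaged comparison uses the mice of both others and is not a separate observation.

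Grin1 encodes the subunit without which no NMDA receptor reaches the surface. It was measured at 290, 274 and 263 CPM in control SC mice and 289, 275 and 280 CPM in CBP-ifKO SC mice. In EE the controls had 284, 300 and 318 CPM and the CBP-ifKOs 250, 300 and 272 CPM. The genotypes overlapped in both housings. The change was 0.03 ± 0.05 in SC (adjusted p = 0.795) and -0.13 ± 0.07 in EE (adjusted p = 0.391). Averaged over housing it was -0.05 ± 0.05, with a 95% interval of -0.15 to 0.05. Over the left-out mice the change ran from 0.003 to 0.074 in SC, -0.199 to -0.065 in EE and -0.088 to -0.021 averaged.

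Grin2a encodes GluN2A, which gives receptors of fast deactivation. Its level was 438, 434 and 416 CPM in control SC mice and 342, 352 and 335 CPM in CBP-ifKO SC mice. In EE the controls had 424, 496 and 434 CPM and the CBP-ifKOs 333, 372 and 366 CPM. All 6 CBP-ifKOs lay below all 6 controls. Grin2a fell by 20.2% in SC (log2 fold change -0.32 ± 0.05, adjusted p = 0.00322) and by 20.4% in EE (-0.33 ± 0.07, adjusted p = 0.0252), and averaged over housing the change was -0.33 ± 0.04 (adjusted p = 9.87e-05, rank 237 of 18251 genes by p). In EE the call was lost when control replicate 3 (-0.35, adjusted p = 0.0647) or CBP-ifKO replicate 1 (-0.28, 0.107), 2 (-0.36, 0.0612) or 3 (-0.35, 0.0966) was left out, within a range from 4.04e-05 to 0.107 over all alternatives. Without control EE replicate 1, the mouse of high choroid plexus markers, it was -0.37 (adjusted p = 0.0199).

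Grin2b encodes GluN2B, the subunit of slower receptors that prevail early in life and bind CaMKII. Control SC mice had 587, 796 and 654 CPM and CBP-ifKO SC mice 548, 575 and 606 CPM. In EE the values were 637, 844 and 724 CPM in controls and 530, 619 and 553 CPM in CBP-ifKOs. The genotypes overlapped in SC, where a CBP-ifKO exceeded the lowest control, and were separate in EE. Averaged over housing Grin2b fell by 19.1% (-0.31 ± 0.07, adjusted p = 0.00989). The change was -0.24 ± 0.09 in SC (adjusted p = 0.159) and -0.36 ± 0.09 in EE, just short of the threshold (adjusted p = 0.0504, between 3.07e-06 and 0.193 over the alternatives). Replicate 2 of both control groups had the highest Grin2b, and these mice also had the highest Ep300 (83.6 and 85.3 CPM) of their groups. Without control SC replicate 2 the change in SC was -0.11 (adjusted p = 0.248, in a range from 0.00663 to 0.381 over the alternatives), and without control EE replicate 2 that in EE was -0.26 (adjusted p = 0.0816). It passed in SC without control replicate 1 (-0.33, adjusted p = 0.0302) and in EE without control replicate 1 (-0.46, adjusted p = 0.0101). Without a filter on low counts it passed in SC (adjusted p = 0.00663) and in EE (3.07e-06). In EE it also passed with DESeq2 (adjusted p = 0.0015), DESeq2 size factors in edgeR (0.0495), a minimum of 1 CPM in 3 mice (0.0459), halved and thinned counts (0.0483), a replicate block (0.0051) and all 12 mice in the fit (0.0435). With CBP-ifKO counts halved but not thinned, Grin2b did not pass in EE, where 1 subunit was called.

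Grin2c encodes GluN2C, which outside the cerebellum is found mainly in glia and a few classes of neurons and forms receptors that are weakly blocked by magnesium. Control SC mice had 57.7, 52.7 and 52.4 CPM, and CBP-ifKO SC mice 51.4, 45.0 and 41.7 CPM. In EE the controls had 60.1, 53.8 and 60.6 CPM and the CBP-ifKOs 45.1, 53.1 and 48.7 CPM. Within each housing every CBP-ifKO lay below every control. Averaged over housing Grin2c fell by 15.5% (-0.24 ± 0.06, adjusted p = 0.00908), while the changes in SC (-0.24 ± 0.08, adjusted p = 0.110) and EE (-0.24 ± 0.08, adjusted p = 0.109) did not pass alone. In EE it passed without control replicate 2 (-0.30, adjusted p = 0.0414, in a range from 0.0145 to 0.309 over the alternatives). Without a filter on low counts it passed in SC (adjusted p = 0.0268) and in EE (0.0145), and with a replicate block in SC (0.0487).

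Grin2c was read beside markers of astrocytes and thalamus, since both express it. Of the 8 astrocyte markers, led by Slc1a2 and none at or under the floor, 3 were called lower in the averaged comparison, and their summed level averaged 5212 CPM in control SC, 4859 in CBP-ifKO SC, 5157 in control EE and 4563 in CBP-ifKO EE. Of the 4 thalamus markers 2 were called higher, Rora (0.24 ± 0.06), the most abundant, and Slc17a6 (0.47 ± 0.14), while Tcf7l2 (-0.21 ± 0.12) and Lef1 (0.03 ± 0.15) did not pass, and the 4 summed to 69.3, 80.6, 65.9 and 83.8 CPM in the same order. DESeq2 called only 1 of these 4 in the averaged comparison. Of all genes 16.9% were called in that comparison. Their part in the Grin2c result was not tested.

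Grin2d encodes GluN2D, which in the adult hippocampus is found mainly in inhibitory neurons. It was measured at 12.1, 12.2 and 11.4 CPM in control SC mice and 12.3, 10.9 and 12.7 CPM in CBP-ifKO SC mice. The EE-housed controls had 9.95, 10.8 and 12.5 CPM and the EE-housed CBP-ifKOs 10.9, 11.1 and 9.33 CPM, so the genotypes overlapped in both housings. The averaged change was -0.04 ± 0.08 (adjusted p = 0.794), with a 95% interval of -0.20 to 0.12.

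Grin3a encodes GluN3A, which lowers the calcium permeability of receptors and is also expressed in somatostatin interneurons. Its level was 60.4, 64.7 and 62.4 CPM in control SC mice and 57.8, 58.5 and 63.1 CPM in CBP-ifKO SC mice. In EE the controls had 60.3, 63.5 and 56.9 CPM and the CBP-ifKOs 54.9, 54.8 and 47.6 CPM, with no overlap. The change was -0.06 ± 0.06 in SC (adjusted p = 0.599), -0.19 ± 0.07 in EE (adjusted p = 0.180) and -0.13 ± 0.05 averaged over housing (adjusted p = 0.0711), none past the threshold. Without a filter on low counts the averaged change passed (-0.14, adjusted p = 0.0482), and over the alternatives its adjusted p reached 0.172. Over the left-out mice the change of Grin3a ran from -0.105 to -0.038 in SC and from -0.226 to -0.126 in EE.

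Of the 10 inhibitory neuron markers, none at or under the floor, Sst and Cck were called lower and Vip higher in the averaged comparison, at -0.33 ± 0.07, -0.45 ± 0.06 and 0.21 ± 0.06, where 16.9% of all genes were called. The general markers Gad1 (-0.08 ± 0.04) and Gad2 (-0.07 ± 0.05) did not pass, and 9 of the 10 changes were negative. The summed level of the 10 averaged 1663 CPM in control SC, 1500 in CBP-ifKO SC, 1673 in control EE and 1514 in CBP-ifKO EE. The part of these cells in the values of Grin2d and Grin3a was not tested.

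Grin3b encodes GluN3B, best known from motor neurons. The control SC mice had 4, 3 and 4 counts and the CBP-ifKO SC mice 14, 4 and 6. In EE the controls had 4, 5 and 1 counts and the CBP-ifKOs 4, 2 and 6. Since the counts of the CBP-ifKO libraries are all even, these raw counts are not comparable between the genotypes. They are also too few for a fold change, and a difference between groups was not detectable at this depth.

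**Figure D2:**
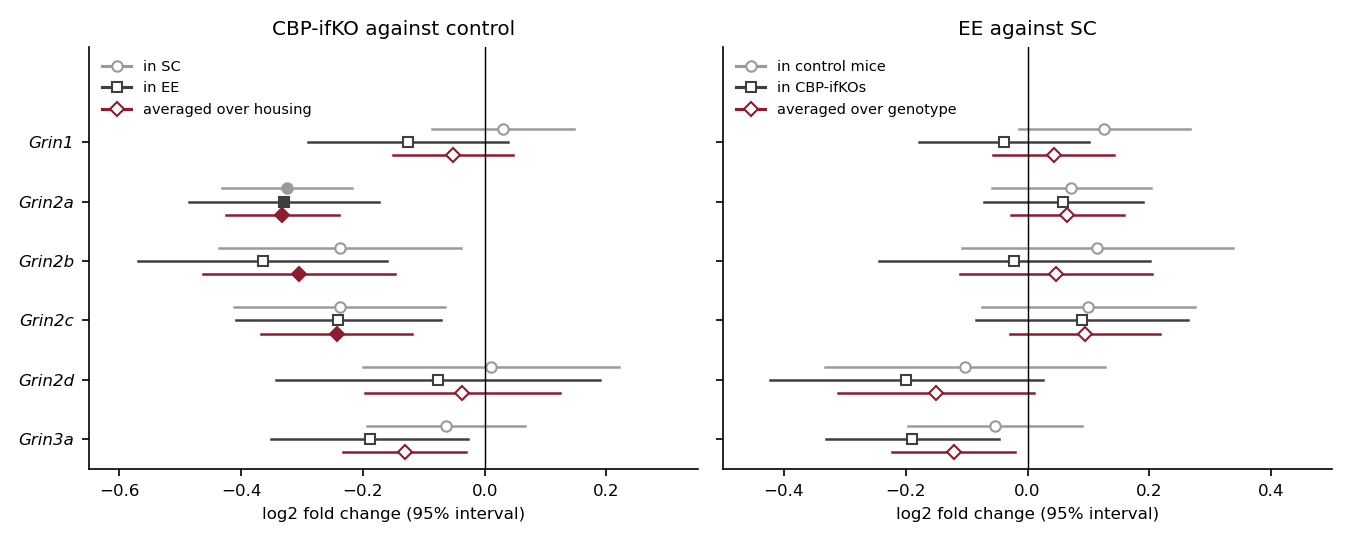
Log2 fold changes of the 6 tested subunits (horizontal axis, with 95% intervals) for CBP-ifKO against control (left) and EE against SC (right). Filled symbols passed an adjusted p of 0.05 over all genes, which holds for Grin2a in each genotype comparison and for Grin2b and Grin2c in the averaged one.

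Markers of CA1, dentate and CA3 and CA2 cells were in part lower in CBP-ifKOs as well. Of the 5 CA1 markers 4 were called lower in the averaged comparison, where 16.9% of all genes were called, among them Wfs1 (-0.86 ± 0.09). The summed level of the 5, led by Mpped1, averaged 762 CPM in control SC, 567 in CBP-ifKO SC, 800.0 in control EE and 556 in CBP-ifKO EE. Of the 5 dentate granule cell markers and the 5 markers of CA3 and CA2, 3 each were called lower, and of the 5 general markers of excitatory neurons 1, Neurod6 (-0.17 ± 0.04). The most abundant of the general markers, Slc17a7, differed by 0.01 ± 0.04. Summed levels in control SC, CBP-ifKO SC, control EE and CBP-ifKO EE averaged 410, 366, 407 and 330 CPM for the dentate list (led by Calb1), 341, 277, 368 and 297 CPM for the CA3 and CA2 list (led by Cpne4), and 1661, 1679, 1738 and 1694 CPM for the general list. Of the 3 dentate markers called lower, C1ql2 changed most in the averaged comparison (-1.76 ± 0.10). The more abundant Calb1 (0.05 ± 0.06) and Prox1 (-0.01 ± 0.07) did not pass. Outside the neurons, both oligodendrocyte precursor markers, Pdgfra (-0.26 ± 0.06) and Cspg4 (-0.33 ± 0.08), and 2 of 5 microglia markers, Cx3cr1 (-0.170 ± 0.045) and Csf1r (-0.12 ± 0.04), were called lower in the averaged comparison. The precursor markers summed to 83.8, 63.9, 79.5 and 70.8 CPM and the microglia markers to 293, 278, 289 and 261 CPM in the same order of groups. With edgeR 0 of 6 oligodendrocyte markers (-0.03 to 0.09, with 0 at an unadjusted p below 0.05) and 0 of 4 endothelial markers (-0.22 to 0.03, with 2) were called in that comparison, and DESeq2 called 0 of either. Of the lists for neighbouring tissue, Ppp1r1b of the striatum list was called lower in the averaged comparison (-0.43 ± 0.08) and in EE (-0.53 ± 0.12), and Ttr of the choroid plexus list in SC (-1.70 ± 0.12) and in the averaged comparison (-2.99 ± 0.88), which includes control EE replicate 1. DESeq2 called 0 of the 4 choroid plexus markers tested in the averaged comparison, so the call of Ttr there was lost. None of the markers named here was at or under the floor in any mouse. In bulk tissue fewer cells of a type and less RNA per cell cannot be told apart, and the part of these markers' cells in the changes of Grin2a and Grin2b was not tested.

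The ratio of subunits within a mouse does not depend on library scaling. Counts per length (with 0.5 counts added) were compared as 7 log2 ratios under 3 contrasts by two-sided exact permutation tests, with p-values adjusted over all 21 tests. Permuting genotype labels within housing gives 400 assignments and a smallest p of 0.005. Whether a ratio at that p passes over 21 tests depends on how small the p-values of the other tests are. With all 12 mice it was reached by Grin2a/Grin1 and the summed ratio alone. No ratio passed after adjustment, which for these 2 does not show that the genotypes did not differ. Without control SC replicate 1 the genotype differences of Grin2a/Grin1, Grin2b/Grin1 and the summed ratio passed in the same test, and without control EE replicate 2 those of Grin2a/Grin1, Grin2c/Grin1 and the summed ratio, each at an adjusted p of 0.035 (exact permutation), the value that 3 tests at the smallest p share. Grin2a/Grin1 and the summed ratio were at that smallest p with all 12 mice as well, so their passing there is not stronger evidence.

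Grin2a/Grin1 separated the genotypes in the 12 mice. The ratio was 0.817, 0.857 and 0.856 in control SC mice and 0.639, 0.692 and 0.646 in CBP-ifKO SC mice. In EE it was 0.807, 0.894 and 0.738 in controls and 0.720, 0.670 and 0.729 in CBP-ifKOs. Each CBP-ifKO lay below each control. The difference was -0.36 (log2) in SC and -0.20 in EE, and their mean of -0.28 had the smallest p the permutations can give (exact p = 0.005, adjusted p = 0.0525).

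The sum of Grin2a to Grin2d over Grin1 behaved alike. It was 2.05, 2.43 and 2.27 in control SC mice against 1.78, 1.88 and 1.84 in CBP-ifKO SC mice, and 2.14, 2.39 and 2.05 against 1.96, 1.87 and 1.92 in EE. The groups did not overlap, and the mean difference was -0.24 (exact permutation p = 0.005, adjusted p = 0.0525). With the longest coding transcript as length the sum was 1.10 ± 0.0887 (SD, n = 3) in control SC and 0.896 ± 0.0246 in CBP-ifKO SC.

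Grin2b/Grin1 differed by a mean of -0.24 (exact permutation p = 0.02, adjusted p = 0.084) and did not pass, except without control SC replicate 1 (-0.31, adjusted p = 0.035). Grin2c/Grin1 differed by -0.19 (exact permutation p = 0.01, adjusted p = 0.07) and did not pass either, except without control EE replicate 2 (-0.22, adjusted p = 0.035). Grin2a/Grin2b, the ratio that rises during postnatal development, averaged 0.890 ± 0.139 (SD, n = 3) in control SC, 0.826 ± 0.0521 in CBP-ifKO SC, 0.855 ± 0.0583 in control EE and 0.873 ± 0.0424 in CBP-ifKO EE. The groups overlapped throughout, and the genotype difference was -0.03 (exact permutation p = 0.7, adjusted p = 0.94). Grin2d/Grin1 (0.01, adjusted p = 0.94, exact permutation) and Grin3a/Grin1 (-0.08, adjusted p = 0.677) did not pass.

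**Figure D3:**
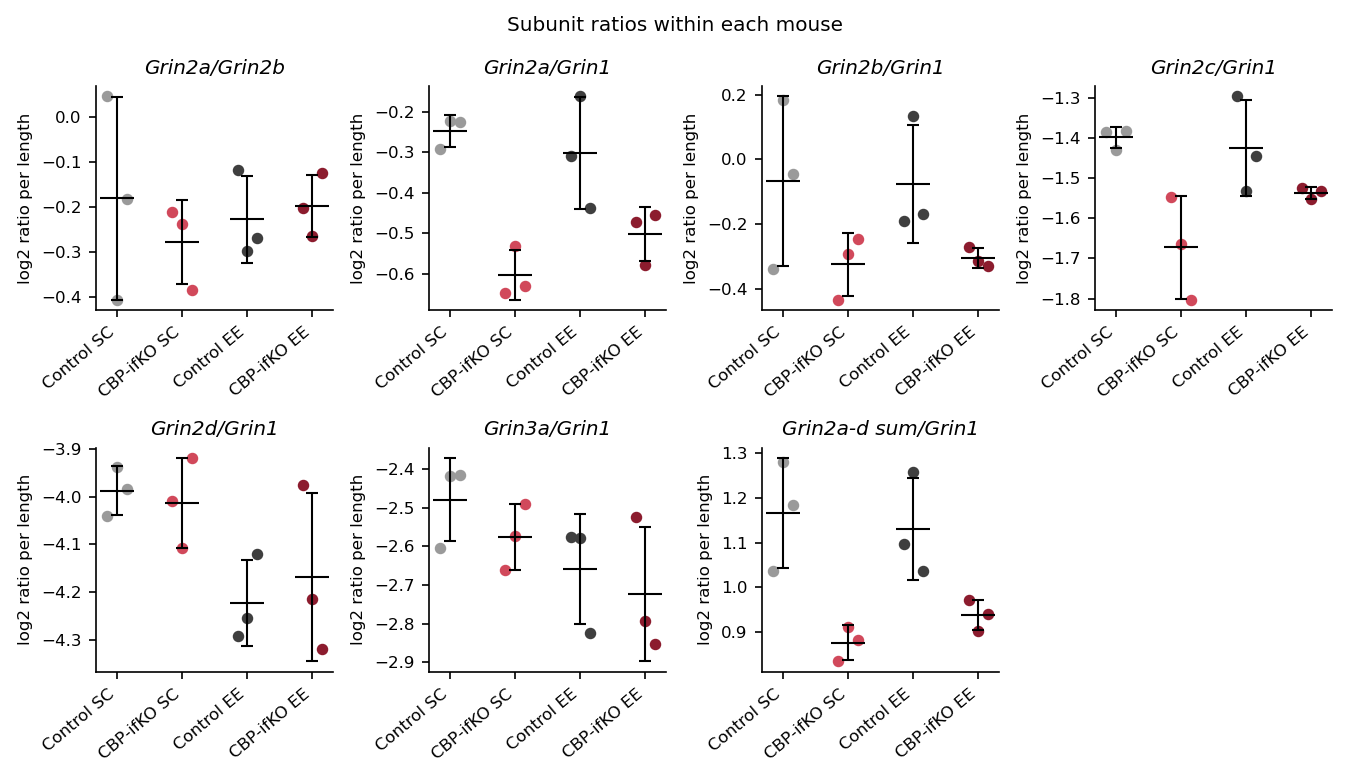
Log2 ratio of subunit counts per length (vertical axis, not starting at 0) in each of the 12 mice, by group (horizontal axis). Points are mice, and the bars show the mean and SD of 3 mice. Grin2a/Grin1 lies between -0.65 and -0.46 in CBP-ifKOs and between -0.44 and -0.16 in controls.

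EE altered no subunit detectably in either genotype. With edgeR 0 of the 6 tested subunits were called in control mice, where the share of all genes called was 0%, and before adjustment 768 genes of 18251 lay below a p of 0.05, none of them a subunit. In CBP-ifKOs 0 of 6 were called beside 0.011% of all genes, and averaged over genotype 0 of 6 beside 0.164%. In both of these Grin3a was the 1 subunit with an unadjusted p below 0.05. DESeq2 called 0 subunits in each of the EE comparisons, and 13 genes in control mice. The EE change in control mice and the genotype change in SC share the control SC mice and are not independent of each other.

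The subunit values under EE were small. In control mice the changes ran from -0.10 ± 0.11 (Grin2d) to 0.13 ± 0.07 (Grin1), and in CBP-ifKOs from -0.20 ± 0.11 (Grin2d) to 0.09 ± 0.08 (Grin2c). Averaged over genotype, Grin2a differed by 0.07 ± 0.04 and Grin2b by 0.05 ± 0.07, with 95% intervals of -0.03 to 0.16 and -0.11 to 0.20. Grin3a had the smallest unadjusted p of the family, with -0.19 ± 0.07 in CBP-ifKOs (adjusted p = 0.469) and -0.12 ± 0.05 averaged over genotype (adjusted p = 0.424), and each EE-housed CBP-ifKO lay below each SC-housed one. Among the ratios, Grin2d/Grin1 differed most between housings, by -0.23 in controls and -0.16 in CBP-ifKOs on the log2 scale, and their mean of -0.20 did not pass (exact permutation p = 0.02, adjusted p = 0.084).

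Whether genotype and housing acted on each other was tested as the EE change in CBP-ifKOs minus that in controls. With edgeR 0 of 6 subunits were called, beside 0% of all genes, with 574 genes and 0 subunits at an unadjusted p below 0.05, and DESeq2 called 0 genes. The differences were -0.17 ± 0.09 for Grin1, -0.01 ± 0.09 for Grin2a, -0.14 ± 0.15 for Grin2b, -0.01 ± 0.12 for Grin2c, -0.10 ± 0.15 for Grin2d and -0.14 ± 0.09 for Grin3a. The interval for Grin2a (-0.20 to 0.17) bounds the difference more closely than that for Grin2b (-0.45 to 0.18). None of the 7 ratios passed, with permutation p-values of 0.125 and above when housing labels were permuted within genotype. These p-values are exact only where housing alters a ratio in neither genotype.

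Many but not all transcripts of proteins that hold the receptor at the postsynaptic density were called lower in CBP-ifKOs as well. Of 20 scaffold and anchoring genes 12 were called lower and 0 higher in the averaged comparison (16.9% of all genes were called), 7 were called lower in SC (beside 5.52%) and 8 in EE (beside 4.57%), and the median log2 fold change was -0.23 beside 0.003 over all genes. Dlg4, which encodes the scaffold PSD-95 that binds the GluN2 tail, went from 696 ± 22.2 CPM (SD, n = 3) in control SC to 559 ± 16.4 in CBP-ifKO SC and from 705 ± 30.5 to 538 ± 16 in EE. Its averaged change was -0.35 ± 0.03, close in size to that of Grin2a. Beneath PSD-95, Shank3 changed by -0.38 ± 0.05, Shank1 by -0.28 ± 0.05 and Shank2 by -0.27 ± 0.06, and the linkers Dlgap4, Dlgap3 and Dlgap1 by -0.33 ± 0.04, -0.30 ± 0.05 and -0.21 ± 0.05.

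In the averaged comparison, where 16.9% of all genes were called, 1 of 8 trafficking genes was called lower, Lin7b (-0.27 ± 0.08), part of the complex that carries GluN2B along dendrites. Of 19 kinases and phosphatases that act on the receptor 9 were called lower and 1 higher. The lower ones included Prkcb (-0.47 ± 0.05) and Prkca (-0.28 ± 0.07) of protein kinase C, Ptk2b (-0.36 ± 0.04), which acts upstream of Src, the calcineurin subunits Ppp3r1 (-0.31 ± 0.03) and Ppp3ca (-0.25 ± 0.04), Camk2b (-0.15 ± 0.04) and Ptpn5 (-0.17 ± 0.04), the phosphatase that removes phosphate from GluN2B. Camk2d was higher (0.39 ± 0.09). In SC 3 of the 19 (beside 5.52% of all genes) and in EE 4 of the 19 (beside 4.57%) were called, all lower.

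Of the 14 genes for co-agonist supply and clearance 12 were tested and 2 were called lower in the averaged comparison, about the share of all genes called (16.9%), Gldc of glycine cleavage (-0.35 ± 0.06) and the transporter Slc1a4 (-0.14 ± 0.04). Ddo, which degrades D-aspartate, was called higher in SC (0.45 ± 0.12) but was at 0.03 ± 0.12 in EE, a difference between housings whose test did not pass. Of 9 genes of signalling downstream of the receptor 4 were called lower in that comparison, among them Nos1 (-0.52 ± 0.06), Calm3 (-0.32 ± 0.04) and Calm2 (-0.21 ± 0.04). Nos1, the neuronal nitric oxide synthase tethered to the receptor through PSD-95, was the only gene of these 5 pathway lists called with EE. Averaged over genotype, where 0.164% of all genes were called, it changed by -0.39 ± 0.06 (adjusted p = 0.0190). It went from 154 ± 16.2 CPM (SD, n = 3) in control SC to 126 ± 13.5 in control EE, and from 115 ± 5.08 to 82.0 ± 8.10 in CBP-ifKOs.

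The biological coefficient of variation was 5.95% for Grin2a, 5.92% for Grin3a, 6.25% for Grin1, 7.16% for Grin2c, 8.67% for Grin2d and 9.43% for Grin2b, beside a median of 8.84% over all genes tested. Grin2b was the only tested subunit above that median. Against the trend at their own abundance, Grin2b (trend 6.46%) and Grin2c (trend 6.67%) lay above it and the other 4 tested subunits below. Across the 12 mice Grin2a and Grin2b were the most alike pair in the family (Pearson r = 0.82 of log2 CPM), and r was 0.57 for deviations from the group means, where Grin1 and Grin2c were more alike (0.64). Grin2a and Grin2c had r = 0.76, which was 0.04 once group means were removed. These correlations are descriptions over mice that share groups and library scaling.

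The genes most like each subunit over the 12 mice were found among 15010 genes with a mean of at least 1 CPM. They were Ap3b1 (r = 0.89), Fig4 (0.87) and Cyth3 (0.86) for Grin1, and Asph, Map4 and Cpne4 (each 0.98) for Grin2a, the last also on the list of CA3 and CA2 markers. Grin2b was closest to Myt1l (0.98), Slc7a14 (0.98) and Ank3 (0.97), and Grin2c to Hdac5 (0.96), Necab3 (0.95) and Tyro3 (0.94). For Grin2d they were Rnf32 (0.90), Rad51c (0.88) and Zfr2 (0.88), and for Grin3a Gm2824 (0.93), Rere (0.91) and Maml2 (0.90). For deviations from group means r with the same 3 genes was 0.96 to 0.98 for Grin2b, 0.875 to 0.929 for Grin2c, 0.835 to 0.861 for Grin1, 0.815 to 0.954 for Grin2a, 0.81 to 0.87 for Grin2d and 0.68 to 0.80 for Grin3a. The genes were picked for their high r over the 12 mice.

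The subunit genes lie on 7 different chromosomes (GRCm38, GENCODE). Grin1 is at chr2:25291181-25319187, Grin2a at chr16:9567898-9995560, Grin2b at chr6:135713233-136173511, Grin2c at chr11:115249169-115267243, Grin2d at chr7:45831883-45878378 and Grin3a at chr4:49661611-49845744, all on the minus strand, and Grin3b at chr10:79970715-79977190 on the plus strand. Their Ensembl identifiers in the count table are ENSMUSG00000026959 (Grin1), ENSMUSG00000059003 (Grin2a), ENSMUSG00000030209 (Grin2b), ENSMUSG00000020734 (Grin2c), ENSMUSG00000002771 (Grin2d), ENSMUSG00000039579 (Grin3a) and ENSMUSG00000035745 (Grin3b). Grin2a and Grin2b are the longest, at 427663 and 460279 bases. Exons of opposite-strand genes overlap exons of Grin1 (Grin1os), Grin2b (Gm14329, Gm22892 and Gm26653), Grin2c (Gm25837), Grin2d (Gm45441) and Grin3b (Tmem259). Whether counting used strand is not given in the sources used here, so reads from such a gene and its partner cannot be told apart.

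RefSeq promoters (GRCm38.p6, from 250 bases before to 50 after the start) were matched for 4 of the 7 genes, Grin1, Grin2c, Grin2d and Grin3b. The Grin2d promoter (chr7:45866632-45866931, minus strand) lies inside the gene span given above and not at its annotated start. CBP was named for binding CREB, the factor of the cAMP response element, so both strands were searched for that element (TGACGTCA) and its core site (TGACG), which is contained in it, for the GC box (GGGCGG) and for TATAAA. The full element was in none of the 4, as in all but 1.79% of 32851 promoters. The core site, found in 20.8% of promoters, occurred in Grin1 alone, where 2 copies begin 31 and 5 bases before the start. The GC box, found in 35.7% of promoters, occurred in Grin1 (1 copy) and Grin2c (3 copies, of which a pair overlap), and TATAAA, found in 13.6%, in Grin3b alone. The promoters of Grin1, which did not change detectably with genotype (chr2:25319138-25319437, minus strand), and of Grin2c, which was lower in CBP-ifKOs (chr11:115267194-115267493, minus strand), are shown with core sites and GC boxes in capitals.
Grin1: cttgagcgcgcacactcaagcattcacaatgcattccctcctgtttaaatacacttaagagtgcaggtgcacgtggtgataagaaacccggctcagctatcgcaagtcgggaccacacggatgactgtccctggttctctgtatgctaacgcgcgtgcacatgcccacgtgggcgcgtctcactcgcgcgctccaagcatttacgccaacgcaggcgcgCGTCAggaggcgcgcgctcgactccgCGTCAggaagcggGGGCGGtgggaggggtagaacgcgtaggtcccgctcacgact
Grin2c: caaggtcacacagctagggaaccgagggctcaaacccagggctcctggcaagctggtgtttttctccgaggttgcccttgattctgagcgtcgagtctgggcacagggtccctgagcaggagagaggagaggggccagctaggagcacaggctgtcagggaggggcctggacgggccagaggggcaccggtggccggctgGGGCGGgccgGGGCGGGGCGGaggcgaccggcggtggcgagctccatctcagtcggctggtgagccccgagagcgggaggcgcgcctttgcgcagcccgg
Grin1 held 33 CG dinucleotides and 60.7% G or C, and Grin2c 22 and 70.0%, beside medians of 7 and 52.7% over all promoters. A match of these letters describes the sequence and is not a binding site.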

How the data were processed

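The authors trimmed 50-nt reads with Trim Galore 0.6.4, aligned them to mm10 (GRCm38) with STAR 2.6.1 and counted exonic reads per gene. Each mouse has 2 runs, and its count column is labelled as merged. How the even counts of the CBP-ifKO libraries arose is not known. The deposited values are raw counts. The deposited table also gives an other value, the counted exon length of each gene, written by the authors' counting program and used for RPKM. Identifiers were matched to symbols for 55144 of 55471 genes. Genes passing edgeR's expression filter were compared with edgeR 4.0.16 in R 4.3.3 (TMM, quasi-likelihood F test), with 6 mice for the genotypes within a housing and 12 mice otherwise. DESeq2 1.42.0, other scalings and filters, halved and thinned counts, a replicate block and leaving out each mouse were alternatives. The procedures were tested on simulated data. Members and lists were chosen with earlier results of these data known. Named are the subunits, Crebbp, Ep300 and Esr1, from each pathway list genes called for genotype (at most the 8 of smallest averaged p) or for EE or interaction, and the 3 genes most correlated with each subunit. Some genes that this rule takes are not reported here. Markers named beside them illustrate their lists and were chosen after their values were seen.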

Additional observations from a re-analysis of the deposited data

How the results depend on the processing

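Grin2a, Grin2b and Grin2c were called lower in the averaged genotype comparison in all 12 refits that left out a mouse, with highest adjusted p-values of 0.00057, 0.0301 and 0.0276. Among other settings, 26 counts of called genes or subunits moved by more than 1.5 times or across 0, and the causes were not tested.

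Without a filter on low counts 1512 genes were called in SC, 1677 in EE, 145 for EE in controls, 247 for EE in CBP-ifKOs, 334 for EE averaged and 110 for the interaction, and 3 subunits in SC and 3 in EE. DESeq2 called 1211 genes and 2 subunits in EE, and 13, 46 and 135 genes for EE in controls, in CBP-ifKOs and averaged. Fitting all 12 mice gave 1293 genes and 2 subunits in EE. Scaling by DESeq2 size factors, a minimum of 1 CPM in 3 mice, and halved and thinned counts each gave 2 subunits in EE. Halving without thinning gave 1, as in the main fit. Thinned counts gave 3 genes for EE in controls and 1 for EE in CBP-ifKOs, halved CBP-ifKO counts 0 for EE in CBP-ifKOs (1300 at an unadjusted p below 0.05, 46 by DESeq2 on the deposited counts), and a further limit of 0.5 on the absolute log2 fold change 6 for EE averaged.

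With the number as a replicate block 17 genes were called for EE in CBP-ifKOs, 48 for EE averaged, 2 subunits in SC (Grin2a and Grin2c) and 2 in EE (Grin2a and Grin2b). Of 18 same-numbered pairs 5 correlated over 0.1 in their deviations from group means (r from -0.067 to 0.305). Differently numbered pairs ran from -0.251 to 0.144. Whether the numbers pair the mice was not tested.

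Leaving out a mouse gave 399 (CBP-ifKO SC 2) to 1908 (control SC 2) genes in SC, with 637 without control SC 1, 435 without control SC 3, 404 without CBP-ifKO SC 1 and 433 without CBP-ifKO SC 3. In EE it gave 285 (control EE 3) to 1016 (control EE 2), with 431, 447 and 286 without CBP-ifKO EE 1, 2 and 3. For EE in controls the range was 0 to 5 (control EE 1), with 1 and 3 without control SC 1 and 2. For EE in CBP-ifKOs it was 0 to 10 (control SC 2), with 1 without control SC 3 or control EE 3 and 0 without any CBP-ifKO of either housing. For EE averaged it was 7 (CBP-ifKO EE 3) to 42 (CBP-ifKO EE 1), with 11, 14 and 12 without CBP-ifKO SC 1, CBP-ifKO SC 2 and control EE 3. Subunits called ran from 1 to 2 (control SC 1) in SC and from 0 (control EE 3 or any CBP-ifKO EE mouse) to 2 (control EE 1 or 2) in EE, and genotype ratios called from 0 to 3 (control SC 1 or control EE 2).

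Directions turned only for values that passed no test. Thinned counts gave 0.031 for the Grin2c interaction, and no filter -0.001 for Grin2d in SC. Over the left-out mice, log2 values ran from -0.110 to 0.023 for Grin1 with EE in CBP-ifKOs, -0.001 to 0.115 for Grin2a with EE in controls, -0.056 to 0.060 for its interaction, -0.088 to 0.025 for Grin2b with EE in CBP-ifKOs, -0.009 to 0.112 for Grin2b with EE averaged and -0.078 to 0.076 for the Grin2c interaction. Grin2d ran from -0.033 to 0.072 in SC, -0.150 to 0.025 in EE, -0.074 to 0.012 averaged and -0.168 to 0.003 for its interaction, and Ep300 in EE from -0.018 to 0.222. Ratios ran from -0.090 to 0.023 (genotype) and -0.040 to 0.073 (housing) for Grin2a/Grin2b, -0.014 to 0.056 (housing) for Grin2a/Grin1, -0.063 to 0.068 (housing) and -0.097 to 0.165 (interaction) for Grin2b/Grin1, -0.035 to 0.051 (genotype) and -0.019 to 0.153 (interaction) for Grin2d/Grin1, -0.067 to 0.096 (interaction) for Grin3a/Grin1 and -0.020 to 0.041 (housing) for the summed ratio.

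Levels and shares depend on the length chosen. With the longest coding transcript, an alternative chosen after seeing the data, 24 of 28 shares moved by more than the spread between mice. Among the subunits, Grin3b alone had too few counts to pass the expression filter.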
